A study of Mus musculus with 10 samples.

Results

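Goblet cells are the mucus-secreting cells of the intestinal epithelium. The 9 genes described here encode the main proteins that these cells store and release (Muc2, Fcgbp, Zg16, Tff3, Retnlb and Spink4), the endoplasmic reticulum protein that helps fold the mucin (Agr2), and a pair of transcription factors that set the goblet cell fate (Atoh1 and Spdef). They were picked by symbol from the 24062 genes that were counted, with earlier results of these data known, and each of the 9 passed the filter on low counts. In KSR23 jejunum, 7 of the 9 transcripts were more abundant than in WT jejunum and none was less abundant, beside 9.73% of all genes tested that were higher and 8.76% that were lower, while Tff3 and Atoh1 did not pass the test. The rise ran from 0.90 on the log2 scale for Spink4 to 5.88 for Retnlb.

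Poly(A) RNA of the jejunum was sequenced at postnatal day 5, in 5 WT and 5 KSR23 libraries. WT mice were wild type, on the C57BL/6 background. KSR23 mice carried the R23 allele, in which a cassette for both subunits of interleukin-23 (IL-23) sits in the ROSA26 locus behind a floxed STOP signal, together with K14-cre, a cre recombinase under the keratin 14 promoter. That promoter is active in keratinocytes of the skin and of other stratified epithelia, so goblet cells are not the cells to which the transgene was directed. The labels do not say whether WT mice carried 1 of the alleles without the other, or how many animals gave RNA to a library, so p-values measure the spread between these libraries.

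The libraries held 25.5 to 61.0 M counts in genes (M, 1e6), the highest being KSR23 replicate 1. Replicates 4 and 5 of both groups stood apart from the others. Each of 5 exchangeable libraries would be the highest or the lowest of its group at 40% of genes, whereas replicates 4 and 5 were so at 8.44 to 18.3% of genes and replicates 1 to 3 at 45.7 to 75.5%. Replicates that lie between the others shrink the measured spread, so values from replicates 1 to 3 are given for each of the 9 genes and for the lists. Libraries also differed in how the level of a gene moved with the GC content of its transcript. The slope of log2 CPM (counts per 1 M of the scaled library total) per 10 percentage points of GC ran from -0.36 to 0.28 in WT and from -0.54 in KSR23 replicate 3 to 0.29 in KSR23 replicate 1.

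Goblet cells arise in the crypt from progenitors that escape Notch signalling. Notch keeps the repressor Hes1 on, Hes1 represses Atoh1, and cells that keep Atoh1 become secretory. Spdef acts after Atoh1 and drives the maturation of goblet and Paneth cells. Mature goblet cells pack Muc2, a very large disulfide-linked mucin, into granules and release it with its partner proteins, and the released mucin unfolds into the gel that lies between the villi and the bacteria of the lumen. In the mouse, cytokines that act through Stat6 or Stat3 can raise several of these products. Bulk RNA from whole tissue does not separate these layers: a lower or higher number of goblet cells and a change of RNA per goblet cell cannot be told apart.

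In build mm10, all 9 genes are protein coding and none overlaps an exon of another counted gene. Muc2 is on chromosome 7 (141690340 to 141754693, plus strand), as are Fcgbp (28071236 to 28120862, plus strand) and Zg16 (127050156 to 127087328, minus strand). Tff3 (31125306 to 31129646) and Spdef (27714352 to 27728955) both lie on the minus strand of chromosome 17. Agr2 is on chromosome 12 (35992907 to 36004087), Retnlb on chromosome 16 (48816856 to 48818892), Spink4 on chromosome 4 (40920052 to 40931395) and Atoh1 on chromosome 6 (64729125 to 64731245), all on the plus strand. Of the 75-base stretches of Fcgbp, 4.02% also occur in 9530053A07Rik, so a small part of its reads could not be assigned to 1 gene. For the other 8 genes no such stretch was found elsewhere.

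The promoters of Muc2, Fcgbp and Spdef are shown because these genes are the mucin, its cross-linked partner and a regulator of goblet cell maturation, and each of the 3 rose. The 250 bases before the annotated start are from RefSeq (build GRCm38.p6), which gave a promoter for 5 of the 9 genes, and are written in the direction of transcription. Capitals mark matches, on either strand, to the E-box CAGCTG bound by Atoh1 and related factors, to CAGGAT (read as ATCCTG on the other strand), a core to which Spdef and other ETS factors can bind, to TTTATG of the CDX factors, and to TATAA.
Muc2, chr7:141690090-141690339, plus strand: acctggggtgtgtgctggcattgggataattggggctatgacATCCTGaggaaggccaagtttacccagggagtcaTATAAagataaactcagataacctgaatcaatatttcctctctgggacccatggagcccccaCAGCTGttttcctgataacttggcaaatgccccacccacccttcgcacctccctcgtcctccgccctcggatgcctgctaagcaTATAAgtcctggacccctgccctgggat
Fcgbp, chr7:28070986-28071235, plus strand: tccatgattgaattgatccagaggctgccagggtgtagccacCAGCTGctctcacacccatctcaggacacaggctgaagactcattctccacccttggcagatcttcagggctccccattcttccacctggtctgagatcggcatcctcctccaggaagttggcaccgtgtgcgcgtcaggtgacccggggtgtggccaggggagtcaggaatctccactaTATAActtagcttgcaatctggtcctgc
Spdef, chr17:27728952-27729201, minus strand: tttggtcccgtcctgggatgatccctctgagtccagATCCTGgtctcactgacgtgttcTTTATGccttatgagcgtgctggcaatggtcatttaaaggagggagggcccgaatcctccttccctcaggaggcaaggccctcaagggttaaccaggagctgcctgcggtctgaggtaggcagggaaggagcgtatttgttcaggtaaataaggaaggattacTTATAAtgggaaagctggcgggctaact

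The Muc2 window held the E-box 112 bases and the ETS core 208 bases before the start, and the Fcgbp window held an E-box at 208 bases. The ETS core stood 214 bases before the start of Spdef and 82 bases before that of Agr2, and each of these windows also held TTTATG, at 191 and 47 bases. TATAA stood 28 bases before the start in Muc2 and Fcgbp, and again at 174 bases in Muc2. In Spdef it stood at 27 bases, overlapped by a match on the other strand at 28 bases. Such matches are common: among 32851 promoter windows of the same length, 13% held the E-box, 13.6% the ETS core, 10.8% TTTATG and 22.8% TATAA. The STAT motif TTCNNNGAA (7.02% of windows) and the FOXA motif TGTTTAC (3.17%) were in none of the 5 windows, and the Atoh1 window matched none of the 6 motifs. These are descriptions of letters and not of binding.

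To compare the groups, levels are given as CPM on library totals scaled by trimmed mean of M-values (TMM), and the test is the edgeR likelihood ratio test over 17632 genes with Benjamini-Hochberg adjustment, with a gene called at an adjusted p under 0.05. The test called 9.73% of all genes higher in KSR23 and 8.76% lower, against 7 and 0 of the 9 goblet cell genes. The quasi-likelihood F test of edgeR also called 7 of the 9 higher (8.47% of all genes) and none lower (6.91%), none of the 9 was lower at an unadjusted p under 0.05 in either test, and DESeq2 called the same numbers. When replicates 4 and 5 were set aside, Muc2, Zg16 and Retnlb passed the likelihood ratio test (3 of 9, against 2.01% of all genes) and Zg16 the quasi-likelihood test (1 of 9, against 0.574% of all genes). At an unadjusted p under 0.05, 6 of the 9 were higher there by either test, as were 7.35% of all genes (likelihood ratio) and 7.02% (quasi-likelihood). The median log2 fold change was 1.37 over the 9 genes and 0.03 over all genes tested. The 2 groups did not overlap for 7 of the 9 genes, all with KSR23 above WT, as was so for 7.41% of all genes, and 6.99% of all genes had KSR23 below WT without overlap.

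**Figure D1:**
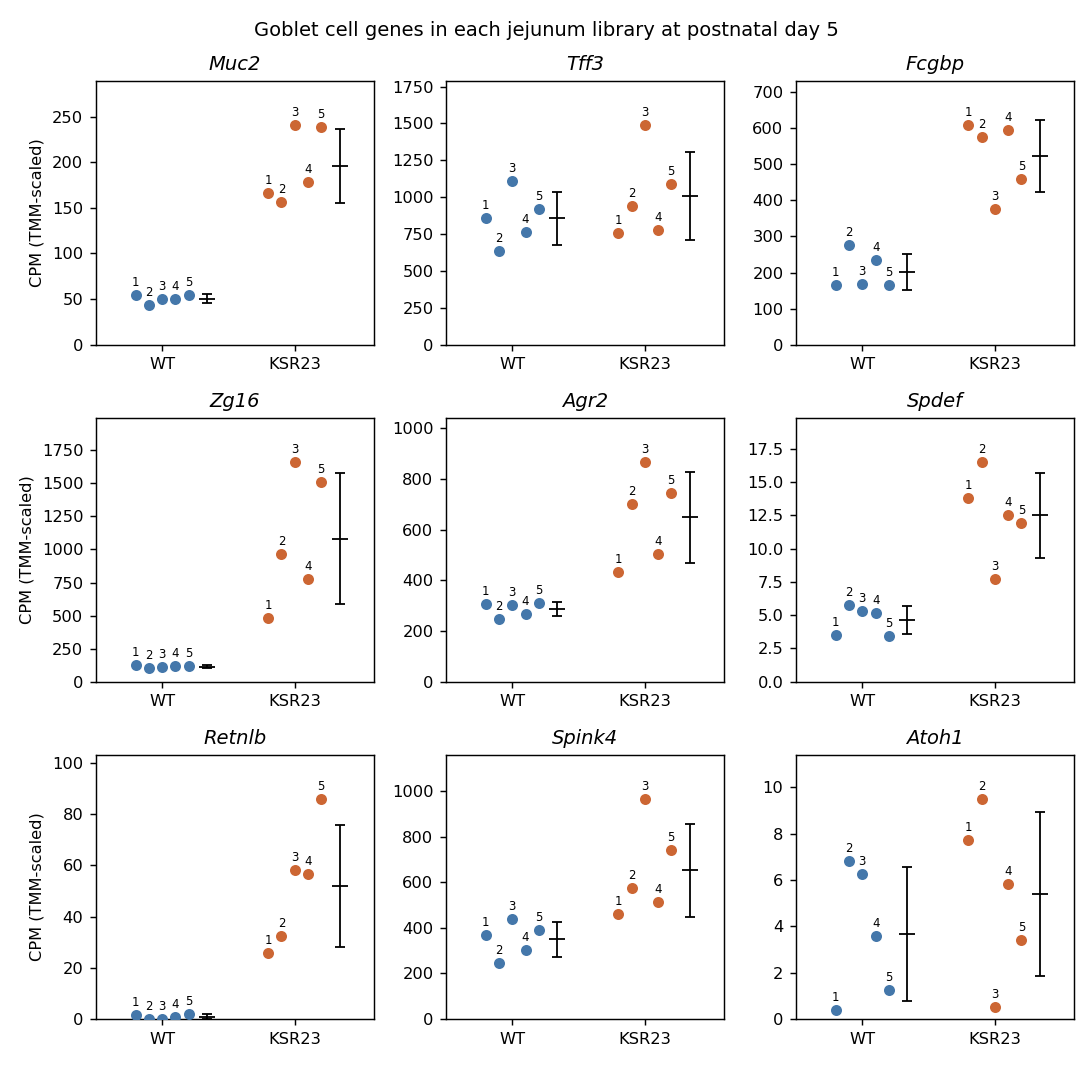
CPM of the 9 genes, 1 panel per gene with its own linear axis from 0, in WT (blue) and KSR23 (orange) libraries numbered by replicate, with the group mean and SD as a bar beside the points (n = 5). The groups do not overlap in 7 of the 9 panels, from Spink4 (WT at most 438 CPM, KSR23 at least 462 CPM) to Retnlb (WT at most 1.91 CPM, KSR23 at least 25.9 CPM), and they overlap for Tff3 and Atoh1.

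Muc2, the gel-forming mucin of the intestine, had 54.9, 43.3, 50.4, 49.9 and 54.7 CPM in WT replicates 1 to 5. In KSR23 it had 166, 156, 241, 178 and 239 CPM. The WT libraries lay close together and every KSR23 library was well above them, with replicates 3 and 5 the highest. The mean was 50.6 ± 4.69 CPM in WT and 196 ± 41.0 CPM in KSR23 (SD, n = 5 each). Muc2 thus rose 3.87-fold, by 1.95 on the log2 scale (SE 0.25; edgeR adjusted p = 2.73e-12, and 6.12e-05 by the quasi-likelihood test). Without replicates 4 and 5 the log2 fold change was 1.96 (edgeR adjusted p = 0.00553, quasi-likelihood 0.0727).

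Fcgbp, which encodes a long protein that is cross-linked to Muc2 in the mucus, had 166, 276, 169, 234 and 166 CPM in WT. It had 609, 576, 377, 596 and 460 CPM in KSR23. All KSR23 libraries were above all WT libraries, and the lowest of them was replicate 3, in which Muc2 was the highest of its group. Fcgbp rose by 1.37 on the log2 scale (SE 0.27; edgeR adjusted p = 1.2e-05, quasi-likelihood 0.00195). Replicates 1 to 3 alone gave 1.39 with an edgeR adjusted p of 0.113 (quasi-likelihood 0.225), so the same size of difference did not pass there. The call was also lost with scaling to epithelial genes (0.92, edgeR adjusted p = 0.0916).

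Zg16, a lectin that binds the cell wall of Gram-positive bacteria and keeps them off the epithelium, was steady in WT at 127, 104, 108, 121 and 116 CPM. In KSR23 it was at 481, 963, 1660, 775 and 1510 CPM. The groups were far apart, and the KSR23 libraries differed among themselves more than the WT libraries did, replicate 3 being the highest and replicate 1 the lowest. Zg16 rose by 3.23 on the log2 scale (SE 0.33; edgeR adjusted p = 6.15e-17, quasi-likelihood 6.54e-05). It was the member that also passed both tests in replicates 1 to 3 alone (log2 fold change 3.23; edgeR adjusted p = 1.4e-05, quasi-likelihood 0.0379).

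Tff3, the trefoil peptide that goblet cells secrete with the mucin and that takes part in epithelial repair, had the highest mean CPM of the 9 in WT. In KSR23 the mean of Zg16 (1080 CPM) was slightly above that of Tff3 (1010 CPM). It had 856, 637, 1110, 763 and 917 CPM in WT. It had 760, 937, 1490, 779 and 1090 CPM in KSR23. The groups overlapped over most of their range, with WT replicate 3 above 4 of the 5 KSR23 libraries. The log2 fold change was 0.24 (SE 0.28; edgeR adjusted p = 0.614, quasi-likelihood 0.56), and over the alternatives tried it ran from -0.14 to 0.37, so no direction is given for it. Replicates 1 to 3 gave 0.32 (edgeR adjusted p = 0.879, quasi-likelihood 0.828).

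Agr2, a protein disulfide isomerase of the endoplasmic reticulum that is needed to make Muc2, had 307, 248, 303, 266 and 312 CPM in WT. In KSR23 it had 431, 699, 866, 505 and 746 CPM. No KSR23 library reached down to the WT range, and replicate 1 came nearest. Agr2 rose 2.26-fold, by 1.18 on the log2 scale (SE 0.26; edgeR adjusted p = 0.000179, quasi-likelihood 0.00433). The call was lost in replicates 1 to 3 alone (1.25, edgeR adjusted p = 0.169, quasi-likelihood 0.267), with Y-linked counts as a covariate (0.84, edgeR adjusted p = 0.114) and with scaling to epithelial genes (0.82, edgeR adjusted p = 0.275).

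Retnlb encodes RELMβ, a small cysteine-rich protein of goblet cells that acts on bacteria and on worms. It had 50, 1, 2, 28 and 51 counts in WT. In KSR23 it had 1823, 1008, 1468, 3201 and 3044 counts. On the CPM scale this was 0.0354 to 1.91 in WT and 25.9 to 85.9 in KSR23, so the WT libraries spread widely, with replicates 2 and 3 below the floor of 3 counts, while the KSR23 libraries formed 1 cluster. Retnlb rose by 5.88 on the log2 scale (SE 0.74; edgeR adjusted p = 4.49e-09, quasi-likelihood 0.000928), the largest change among the 9 and the one with the widest error. In replicates 1 to 3 alone it was 6.16 (edgeR adjusted p = 0.000284, quasi-likelihood 0.0882). Over all alternatives the size ran from 5.23 with scaling to epithelial genes to 7.02 with Y-linked counts as a covariate, and each passed apart from that quasi-likelihood fit.

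Spink4, a Kazal-type protein of goblet cell granules, had 370, 244, 438, 303 and 390 CPM in WT. It had 462, 576, 965, 515 and 740 CPM in KSR23. The ranges did not overlap but nearly touched, at WT replicate 3 and KSR23 replicate 1. Spink4 rose by 0.90 on the log2 scale (SE 0.29; edgeR adjusted p = 0.0142, quasi-likelihood 0.0308). The call was lost without KSR23 replicate 5 (0.85, edgeR adjusted p = 0.0533), in replicates 1 to 3 alone (0.96, edgeR adjusted p = 0.423, quasi-likelihood 0.447), with Y-linked counts as a covariate (0.52, edgeR adjusted p = 0.419) and with scaling to epithelial genes (0.58, edgeR adjusted p = 0.494).

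The regulators are described last. Spdef, the ETS factor that promotes goblet cell maturation, had 3.53, 5.73, 5.32, 5.18 and 3.45 CPM in WT. It had 13.8, 16.5, 7.75, 12.5 and 11.9 CPM in KSR23. The groups did not overlap, and KSR23 replicate 3 was the lowest of its group, as it was for Fcgbp. Spdef rose by 1.43 on the log2 scale (SE 0.31; edgeR adjusted p = 0.000161, quasi-likelihood 0.00371). In replicates 1 to 3 alone it stood at 1.42 (edgeR adjusted p = 0.193, quasi-likelihood 0.265).

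Atoh1, the basic helix-loop-helix factor required for all secretory lineages, had 0.402, 6.82, 6.27, 3.57 and 1.24 CPM in WT. It had 7.71, 9.48, 0.517, 5.83 and 3.39 CPM in KSR23. Libraries of both groups fell to very low values, 13 counts each in WT replicate 1 and KSR23 replicate 3, and the ranges overlapped almost fully. The log2 fold change was 0.56 (SE 0.73; edgeR adjusted p = 0.665, quasi-likelihood 0.669). Replicates 1 to 3 gave 0.42 (edgeR adjusted p = 0.931, quasi-likelihood 0.915). No difference in Atoh1 was detected in these fits.

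**Figure D2:**
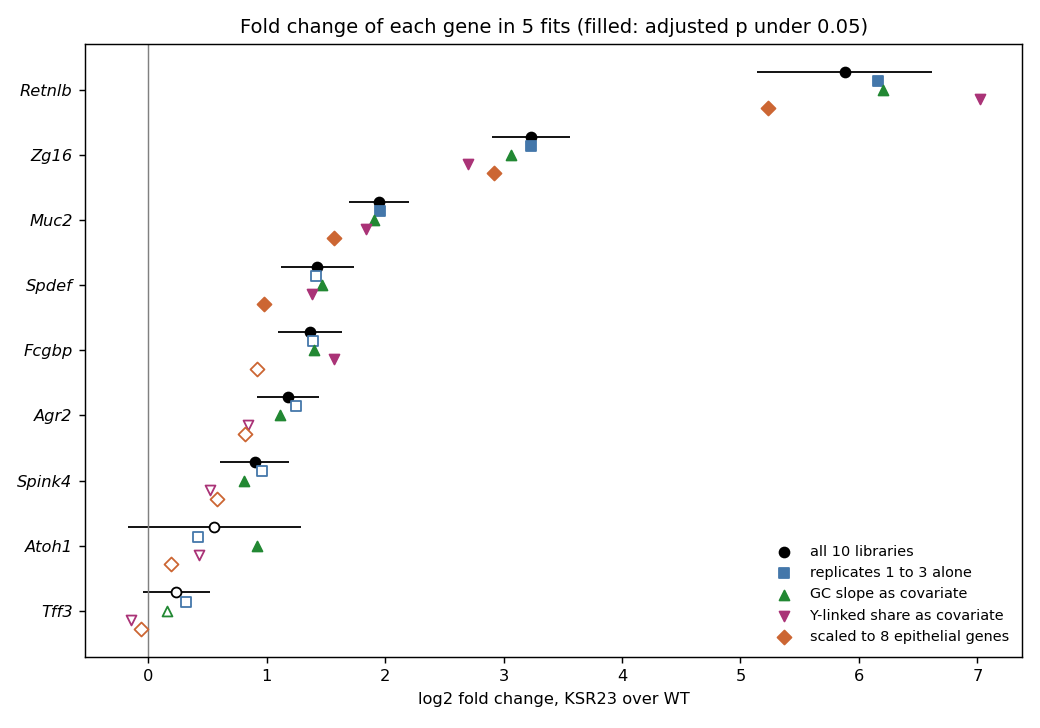
log2 fold change (KSR23 over WT) of the 9 genes in 5 fits, namely all 10 libraries (with a bar of 1 SE on either side), replicates 1 to 3 alone, the GC slope or the share of Y-linked counts of each library as a covariate, and scaling to 8 epithelial genes, filled where the edgeR adjusted p was under 0.05. Muc2, Zg16 and Retnlb are filled in all 5 fits, and Tff3 is filled in none and lies on either side of 0.

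The low libraries of Atoh1 were those with the most negative GC slope of each group. WT replicate 1 had a slope of -0.36 and KSR23 replicate 3 a slope of -0.54, and the next lowest in each group, WT replicate 5 (-0.16) and KSR23 replicate 5 (-0.20), held the next lowest Atoh1 values, 1.24 and 3.39 CPM. Atoh1 itself has 53.1% GC in its transcript. Within KSR23, replicate 3 was also the lowest for Spdef and Fcgbp, the members with the most GC in their transcripts (59.5% and 57.7%). It was the highest for Agr2 (46.6% GC), Zg16 (51.0%), Muc2 (52.3%), Spink4 (52.4%) and Tff3 (55.0%). Tff3 has more GC than Atoh1, so the members did not follow the order of their GC content. Retnlb, the member with the least GC (46.0%), ran the other way in WT, with its lowest values, 1 and 2 counts, in replicates 2 and 3, whose slopes were the most positive (0.28 and 0.24). With the slope as a covariate, an alternative chosen after seeing the data, edgeR called 8 of the 9 genes higher, Atoh1 among them (log2 fold change 0.92, adjusted p = 0.0147), but it also called 19.9% of all genes higher and 17.3% lower. Its part in the spread of Atoh1, Spdef and Fcgbp was not otherwise tested.

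**Figure D3:**
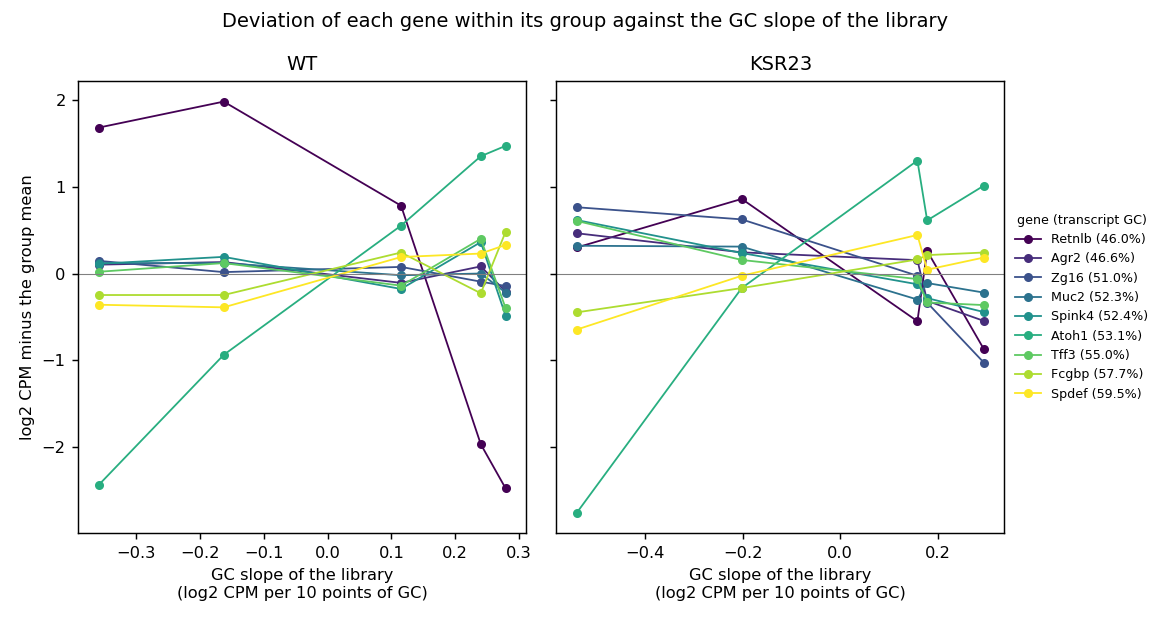
log2 CPM of each gene minus its mean over the 5 libraries of the group, against the slope of the library's log2 CPM on transcript GC content (per 10 percentage points), with WT and KSR23 in separate panels and genes coloured by transcript GC. Atoh1 is lowest where the slope is most negative, at 0.402 CPM in WT replicate 1 and 0.517 CPM in KSR23 replicate 3, and Retnlb in WT runs the other way.

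The goblet cell genes together took 0.191% ± 0.0108 of all gene counts in WT (0.174 to 0.200%) and 0.397% ± 0.0425 in KSR23 (0.341 to 0.451%, SD, n = 5 each). The make-up of this sum differed as well. Tff3 supplied 45.5% ± 3.71 of the 9 genes' counts in WT and 24.1% ± 1.75 in KSR23, whereas Zg16 supplied 6.22% ± 0.820 and 24.7% ± 5.8. Agr2 kept a like share, 15.4% ± 0.975 in WT and 15.5% ± 1.22 in KSR23. Muc2 went from 2.72% ± 0.244 to 4.78% ± 0.680 and Retnlb from 0.0463% ± 0.0438 to 1.23% ± 0.445. Longer transcripts can give more counts, so these shares describe counts and not molecules.

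**Figure D4:**
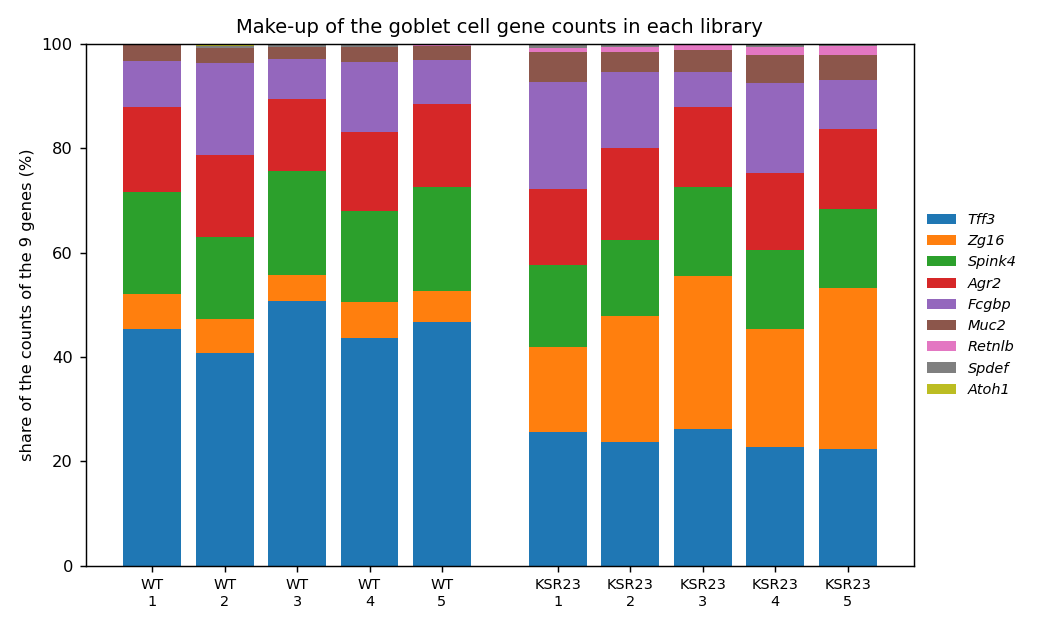
Share of the 9 genes' summed counts taken by each gene in each of the 10 libraries, as stacked bars that start at 0 and end at 100%. Tff3 takes 40.7 to 50.7% in the WT libraries and 22.4 to 26.2% in the KSR23 libraries, and Zg16 takes 4.92 to 6.92% and 16.3 to 30.9%.

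The products were also set against Tff3 in the same library, which removes any scaling of library totals. Since Tff3 was itself picked as the product that did not pass the test, these ratios restate the changes above on another scale and are given with no test. The log2 ratio of counts to Tff3 differed between the groups by 2.87 for Zg16, from -2.88 ± 0.31 in WT to 0.00 ± 0.41 in KSR23 (SD, n = 5), so that in KSR23 the counts of these genes were about equal. The difference was 6.63 for Retnlb, 1.72 for Muc2, 1.16 for Fcgbp, 0.92 for Agr2 and 0.66 for Spink4. In replicates 1 to 3 it was 2.76 for Zg16, 7.27 for Retnlb, 1.63 for Muc2, 1.09 for Fcgbp, 0.90 for Agr2 and 0.63 for Spink4. The ratio of each KSR23 library lay above the highest WT ratio for all but Fcgbp, for which 3 of 5 did. The ratio of Spink4 to Tff3 was the steadiest within a group, with an SD of 0.07 on the log2 scale in either group.

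Levels of different genes were compared as CPM per kilobase of exon. In WT the order was Tff3 (1740 ± 360), Spink4 (732 ± 160), Agr2 (222 ± 22.2), Zg16 (91.6 ± 7.46), Fcgbp (19.3 ± 4.8), Muc2 (7.10 ± 0.658), Spdef (2.01 ± 0.464), Atoh1 (1.73 ± 1.36) and Retnlb (1.26 ± 1.22 CPM per kilobase, SD, n = 5). The ranges of neighbours in this order were separate down to Muc2 and Spdef, and the last 3 overlapped. In KSR23 Tff3 (2050 ± 603), Spink4 (1370 ± 427), Zg16 (857 ± 394) and Agr2 (503 ± 138) came first, each overlapping the next. Retnlb followed at 74.5 ± 34.3 CPM per kilobase and overlapped Fcgbp (49.9 ± 9.64), and Muc2 (27.5 ± 5.75) stood apart from both neighbours. Spdef (5.41 ± 1.38) and Atoh1 (2.54 ± 1.67) were last and overlapped. Retnlb thus stood last in WT, and in KSR23 it stood above Muc2 and beside Fcgbp. Libraries were primed at the poly(A) tail, and the length sampled may differ from the annotated exon length, which is 7127 bases for Muc2 and 493 bases for Tff3.

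Genes were also compared by profile, as the mean absolute difference of log2 CPM over the 10 libraries after centring each gene on its own mean, among 9736 genes with a mean of at least 5 CPM. The measure follows the group difference and the library differences alike, and the libraries share both. Fcgbp and Spdef were near each other (0.176 log2 units), at rank 18 and 17 of each other's lists, and Agr2 and Spink4 likewise (0.164), at rank 46 of the list of Agr2 and 15 of that of Spink4. Zg16 was nearest to Ggt1, a gamma-glutamyltransferase (0.224), then Ceacam1, Mgam, Gm15315 and Fmo1. Muc2 was nearest to Slc52a3, a riboflavin transporter (0.117), then the interferon-induced GTPase gene Gbp4, Serpina3g, Ppt1 and Rassf4. The nearest gene to Retnlb, Cyp4a12a, was at 0.526, farther than the nearest gene of any other member, and was followed by Bcl2l15, Slc13a1, Pla2g5 and Gm766. Tff3 lay closest to Fxyd3 (0.085), with Gcc2, Ubqln1 and Atl3 also near, and Agr2 to S100a10 (0.085), then Skap2, Lrrfip1, Tax1bp1 and Prr13. Fcgbp lay closest to Grhl2 (0.142), then Adam10, Cpsf1, Vdr and Usp53, and Spdef to Nampt (0.128), then Camk2d, Casp8, Plk1 and Vdr, so that Vdr, the vitamin D receptor gene, was on both lists. Spink4 lay closest to Tec (0.110), then Sdcbp2, Kcne3, Ccdc68 and Brpf3, and Atoh1 to Slc9a3r1 (0.140), then Atg4d, Cdkn2aipnl, Dus1l and Snrnp40.

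Other genes of the goblet cell were taken from lists made by function. Of 23 further goblet cell products, 7 were higher in KSR23, 1 was lower and 15 did not pass (5 and 1 by the quasi-likelihood test). The counts of this list and of those that follow stand beside the 9.73% of all genes called higher and 8.76% called lower. Without WT replicate 5, 5 of the 23 passed in place of 8, and replicates 1 to 3 alone gave 3. The median log2 fold change was 0.35, against 1.37 for the 9 genes and 0.03 for all. Oit1, which encodes a secreted cytokine-like protein, went from 1.70 to 5.42 CPM in WT to 30.5 to 156 CPM in KSR23 (log2 fold change 4.99; edgeR adjusted p = 1.02e-17). Itln1, a lectin that binds microbial sugars, went from 90.0 to 153 CPM to 319 to 792 CPM (2.08; edgeR adjusted p = 3.18e-09), and Hgfac, a secreted serine protease, from 4.58 to 7.82 CPM to 23.7 to 29.4 CPM (2.04; edgeR adjusted p = 4.37e-11). Ttc39a rose by 1.54 (edgeR adjusted p = 0.0267, quasi-likelihood 0.0642) and Klk1 and Sytl2 by 1.11 and 0.83. Clca1, a secreted metalloprotease of the mucus, rose by 0.96 with ranges that overlapped (edgeR adjusted p = 0.0473, quasi-likelihood 0.0634). Ang4, an antimicrobial ribonuclease of Paneth and goblet cells, fell by 0.85 on the log2 scale, from 54.5 to 70.1 CPM to 29.1 to 45.8 CPM (edgeR adjusted p = 0.00921, quasi-likelihood 0.0123). This call was lost in replicates 1 to 3 alone (-0.82, edgeR adjusted p = 0.525), and no gene of the list was called lower without KSR23 replicate 4. The summed level of the 23 genes overlapped between the groups, at 587 to 1950 CPM in WT and 1130 to 1450 CPM in KSR23. Most of the WT spread was that of Tspan13, a tetraspanin gene that was not called and was named after its values were seen (85.2 to 1380 CPM in WT, 39.8 to 432 CPM in KSR23). The other 22 genes summed to 466 to 563 CPM in WT and 694 to 1390 CPM in KSR23. Itln1 (mean 124 CPM in WT and 521 CPM in KSR23) and Oit1 (3.30 and 105 CPM) carried most of that difference. The sum therefore does not describe the list as a whole.

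Of 20 regulators of the secretory lineages, 4 rose, 1 fell and 15 did not pass. Hes1, the Notch target that represses Atoh1, fell from 17.9 to 40 CPM in WT to 6.44 to 10.1 CPM in KSR23 (log2 fold change -1.78; edgeR adjusted p = 1.02e-06). Klf4, a zinc-finger factor needed for goblet cell differentiation in the colon, went from 6.66 to 9.25 CPM to 20.1 to 30 CPM (1.63; edgeR adjusted p = 2.75e-07). Bhlha15, a factor of the secretory apparatus, rose by 2.75 (edgeR adjusted p = 1.79e-05), Foxa3, a forkhead factor of goblet cells, by 1.55 (edgeR adjusted p = 0.000602) and Elf3, an epithelial ETS factor, by 1.52 (edgeR adjusted p = 2.42e-06). In replicates 1 to 3 alone, Hes1 (-1.84) and Bhlha15 (2.71) passed the likelihood ratio test, and none of the 20 passed the quasi-likelihood test after adjustment (4 higher and 1 lower at an unadjusted p under 0.05).

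Protein folding and mucus release were described alongside Agr2 and Muc2. Of 24 genes of folding in the endoplasmic reticulum, 4 rose and 20 did not pass, and their median log2 fold change was 0.44. The 4 were Qsox1, a sulfhydryl oxidase (1.68; edgeR adjusted p = 0.0191, quasi-likelihood 0.0569), Ern2, the stress sensor particular to mucous epithelia (1.28; edgeR adjusted p = 0.000924), Dnajc10, a disulfide reductase (1.21; edgeR adjusted p = 7.18e-05), and Pdia4, a disulfide isomerase (0.68; edgeR adjusted p = 0.0364). None of the 24 passed in replicates 1 to 3 alone by either edgeR test (2 were higher at an unadjusted p under 0.05), and 2 passed when WT replicate 1, 3 or 5 or KSR23 replicate 2 was left out. Of 16 tested genes of granule release and of the ion transport and enzymes that act on released mucus, 6 rose and 10 did not pass, by either edgeR test. In replicates 1 to 3 alone 3 of the 6 passed the likelihood ratio test (Cftr, Slc26a6 and Mep1b) and none the quasi-likelihood test (6 at an unadjusted p under 0.05). The 6 included Cftr, the chloride and bicarbonate channel (from 19.0 to 34.9 CPM to 93.5 to 216 CPM, log2 fold change 2.42), the anion exchanger gene Slc26a6 (2.91), the sodium-proton exchanger gene Slc9a3 (2.61, with ranges that overlapped) and Mep1b, a protease that detaches mucus by cutting Muc2 (1.61). Tgm2 and Rab27a rose by 1.13 and 1.12, and 16.8% of the 75-base stretches of Tgm2 occur in other genes.

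**Figure D5:**
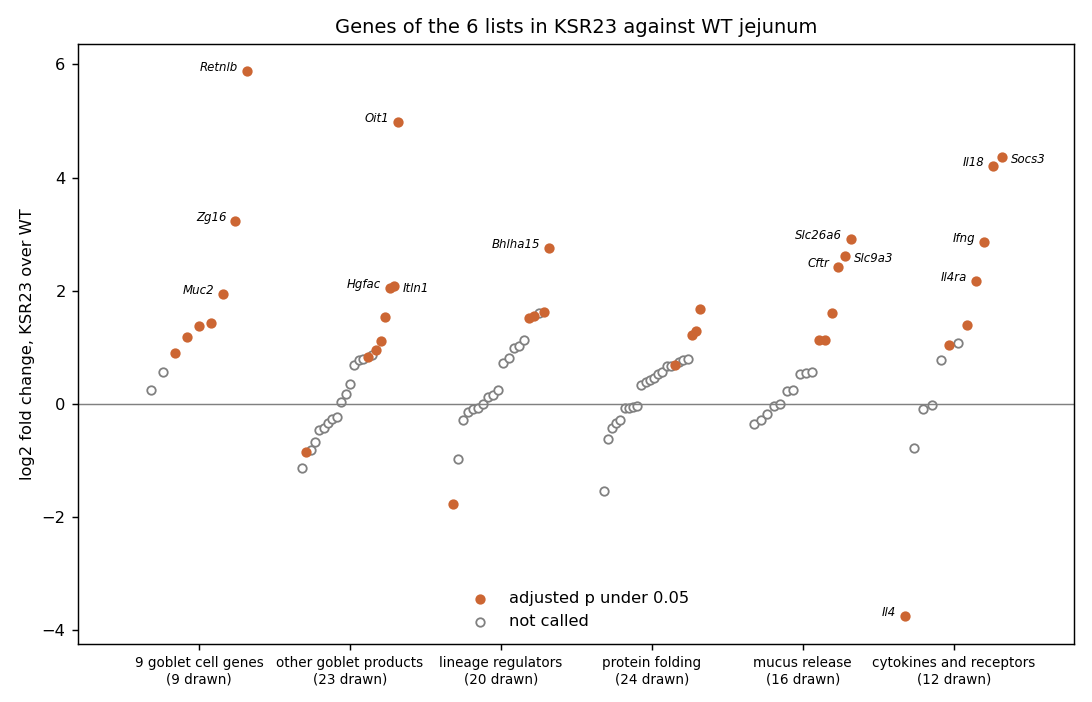
log2 fold change (KSR23 over WT) of every tested gene in 6 lists, sorted within each list, filled where the edgeR adjusted p was under 0.05. Of the cytokine list, 3 genes with at most 3 counts in every library of a group (Il22, Il13ra2 and Il22ra2) are not drawn, since their fold change is not defined by the counts. The 9 goblet cell genes reach from 0.24 to 5.88, and Hes1 is the one filled point below 0 among the lineage regulators.

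A list of 18 genes held cytokines known to act on goblet cells, their receptors, and the signalling genes Stat3, Stat6 and Socs3. Of these 15 were tested, 9 rose, 1 fell and 5 did not pass (7 and 1 by the quasi-likelihood test, and 5 and 1 when replicates 4 and 5 were set aside). The call of Il13ra2 and of Il22ra2, decoy receptors for IL-13 and IL-22, rests on few counts, 0 in every WT library and at most 13 and 38 in KSR23, and was lost in the quasi-likelihood test (edgeR adjusted p = 0.064 and 0.101). Il22, the cytokine that signals to the epithelium through Stat3, had at most 1 count per WT library and 137 to 329 counts per KSR23 library, and 29.9% of its 75-base stretches occur in the near-identical Iltifb. Its receptor gene Il22ra1 rose from 19.9 to 31.5 CPM to 44.2 to 81.6 CPM (log2 fold change 1.39). Socs3, a target of Stat3, rose by 4.36, Il18 by 4.20, Ifng by 2.86, Il4ra by 2.18 and Stat6 by 1.04. Without replicates 4 and 5, Il22ra1 (edgeR adjusted p = 0.122) and Stat6 (edgeR adjusted p = 0.27) did not pass. Of the cytokines that act through Il4ra and Stat6, Il4 had 6 to 28 counts in WT, and in KSR23 8 counts in replicate 4 and 0 in the other 4 libraries (edgeR adjusted p = 0.00405). Il13 and Il25 had 0 counts in all 10 libraries, which allows up to 0.0427 to 0.119 CPM per library on the scaled totals, and Il17a had at most 3 counts in any.

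Markers of other cells that the dissected tissue could hold were examined as well. Of 8 general epithelial genes, 1 was higher (Cdh1, log2 fold change 1.11; edgeR adjusted p = 0.026, quasi-likelihood 0.0572), and their summed level overlapped, at 2600 to 5770 CPM in WT and 3550 to 8370 CPM in KSR23. When libraries were scaled to these 8 genes, 4 of the 9 goblet cell genes passed (Muc2, Zg16, Spdef and Retnlb). Spdef passed narrowly (0.98, edgeR adjusted p = 0.0485). Fcgbp (0.92, edgeR adjusted p = 0.0916), Agr2 (0.82, 0.275) and Spink4 (0.58, 0.494) did not pass and Tff3 stood at -0.06. Of 6 Paneth cell markers, 2 rose, Lyz1 by 3.24 and Mmp7 by 2.88, and the summed level went from 133 to 253 CPM to 544 to 1140 CPM. Lyz1 carried most of that difference, and the other 5 markers summed to 91.9 to 197 CPM in WT and 157 to 304 CPM in KSR23. Log2 fold changes were 0.03 for Defa17, -0.08 for Defa24, -0.24 for Pnliprp2 and 0.77 for Defa26, none called without a covariate. Defa26 was called higher with the GC slope as a covariate (edgeR adjusted p = 0.0217). Other genes hold 91.3% of the 75-base stretches of Defa17 and 14.1% of those of Defa26. The value of Defa17 thus rests on little sequence of its own. Of 4 tested markers of gastric mucous cells and Brunner glands, 3 fell, Tff2 from 0.460 to 2.17 CPM to at most 0.193 CPM, Gkn3 (log2 fold change -3.77) and Muc6 (-2.92, lost in the quasi-likelihood test at 0.0881), and the gastric mucin gene Muc5ac and Tff1 were at 0 counts in every library. Their summed level, 10.9 to 15.5 CPM in WT and 0.645 to 1.59 CPM in KSR23, was below that of Muc2 or Zg16 in either group.

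Of 5 tested pancreatic acinar genes 4 fell, Ctrb1 from 73.2 to 94.5 CPM to 0.0645 to 0.762 CPM, Cela3b (-4.23), Cpa1 (-3.25, lost in the quasi-likelihood test at 0.0595) and Cela2a, with 2 to 78 counts in WT and at most 1 in KSR23. In WT the mean was 82.2 CPM for Ctrb1 and at most 1.15 CPM for the other tested genes of this list. The study describes digestive enzymes as also made by the jejunum, and names Ctrb1, Cpa1 and Cela3b among those lowered there in KSR23. Whether these transcripts came from pancreatic tissue was not tested. Of 4 genes of the proximal small intestine 1 fell (Cybrd1, -1.71), and of 3 genes of the distal part 1 rose (Slc10a2, 2.79, from 0 to 9 counts to 5 to 42 counts, quasi-likelihood adjusted p = 0.0923). Fgf15, also of the distal part, ran the other way and was not called (-1.81, edgeR adjusted p = 0.349). With the GC slope as a covariate Fgf15 was called lower (-3.13, edgeR adjusted p = 0.00457). Among 8 enteroendocrine markers 1 rose (Neurod1, 1.18, quasi-likelihood adjusted p = 0.0702) and 2 fell, Gip (-0.99, edgeR adjusted p = 0.019, quasi-likelihood 0.0378) and Pax4 (-1.56, edgeR adjusted p = 0.0053, quasi-likelihood 0.0331), among 6 tuft cell markers none was called without a covariate by edgeR or DESeq2 (1 was lower at an unadjusted p under 0.05, and Pou2f3 was called lower with the GC slope as a covariate, edgeR adjusted p = 0.0192), and among 6 stem and cycling markers Mki67 (1.03) and Top2a (0.98) rose. Of 5 leukocyte markers 1 rose (Itgam, 1.01, quasi-likelihood adjusted p = 0.0521, 71.7% of whose 75-base stretches occur in another gene model, Gm49368). Of the markers of other cells, those still called by the likelihood ratio test without replicates 4 and 5 were Lyz1, Mmp7, Gkn3, Ctrb1 and Cybrd1. The part of such shifts in the levels of the goblet cell genes was not tested, apart from the scaling to the epithelial genes.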

How the data were processed

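Total RNA of jejunum (low input) was copied with a SMART-Seq v4 kit from oligo-dT primers, made into Nextera XT libraries and read as single ends of 75 bases, without molecular identifiers. The authors aligned reads to mm10 with TopHat2 (2.1.0 in the submitters' processing notes) and counted them per gene with HTSeq 0.6.1p1 under a strict intersection rule. The deposited values are raw counts, not normalized by the authors. Reads with several alignments (8.62 to 17.1 M per library), ambiguous reads (0.446 to 1.04 M) and reads outside genes entered no gene. The strand setting is not given in the sources used here. A floor of 3 counts equals 0.0427 to 0.119 CPM on the TMM-scaled totals and covers counting error only.

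Groups and replicate numbers come from the sample titles. Genes that reached 5 counts in any library were kept (17632), and models with the group as the only term were fitted to the deposited counts of all 10 libraries in edgeR 4.0.16 (R 4.3.3) with TMM scaling. Groups were compared with likelihood ratio tests, as in the study, with Benjamini-Hochberg adjustment over all genes, and the quasi-likelihood F test is given for the 9 genes and wherever it ends the call of a gene or list member that is named. The scripts were tested on simulated counts. Ratios to Tff3 used a pseudocount of 0.5.

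The 9 genes, the other lists and the markers were chosen with earlier results of these data known, so their counts are a description. All 9 genes were to be named, with up to 4 called genes of each other list in either direction, genes at or near 0, and the 5 genes nearest in profile to each member, of which 1 is not reported here. Further called genes (Klk1, Clca1, Sytl2, Tgm2, Rab27a, Il18, Ifng, Il4ra, Il22ra1 and Stat6), uncalled Paneth markers, Tspan13, Pou2f3 and Fgf15 were named after their values were seen. Alternatives were DESeq2 1.42.0, other scalings and filters, a replicate block, the share of Y-linked counts, replicates 1 to 3 alone and leaving out each library. The Y-linked share is that of Ddx3y, Eif2s3y, Kdm5d and Uty together in the gene counts of a library. It stands in for the sex of the animals, which the sample titles do not give. The GC slope as a covariate and the quasi-likelihood test on replicates 1 to 3 were added after seeing the data. Positions and lengths are from GENCODE M21, in which 22750 of the 24062 symbols (94.5%) were found. Promoter sequences are from RefSeq.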

Additional observations from a re-analysis of the deposited data

How the results depend on the processing

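Each of the 9 genes was refitted under 23 alternatives (22 for Retnlb, which a filter of 5 counts in every library removed). Zg16 passed in all 23, Muc2 in 22 and Spdef in 21, Retnlb passed in 21 of 22 with sizes that moved by over 1.5 times in fold (5.23 with the epithelial scaling, 6.67 with the replicate block and 7.02 with the Y-linked share, against 5.88), and no called gene changed sign. Tff3, never called, stood at -0.06 with scaling to the epithelial genes and at -0.14 with the Y-linked share as a covariate. That covariate also ended the calls of Agr2 (0.84, edgeR adjusted p = 0.114) and Spink4 (0.52, edgeR adjusted p = 0.419). The cause of these changes was not tested.

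The number of all genes called, 3261 as reported, was 2000 with the epithelial scaling (474 higher and 1526 lower, since it moved the median of all genes by -0.40 and the share of higher calls from 52.6 to 23.7%), 1797 with the Y-linked share, 6559 with the GC slope, and in replicates 1 to 3 alone 579 (140 by the quasi-likelihood test), where fewer libraries were fitted. Leaving out 1 library gave 2370 to 3802. For the 9 goblet cell genes the number called, 7 as reported, was 4 with the epithelial scaling, 3 and 1 in replicates 1 to 3 alone, and 6 to 7 with 1 library left out.

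For the other goblet cell products (8 called), the number was 4 with the epithelial scaling, 4 with the Y-linked share, 15 with the GC slope, 3 and 1 in replicates 1 to 3, and 5 to 9 with 1 library left out. For the lineage regulators (5) it was 3, and 2 and 0 in replicates 1 to 3. For protein folding (4) it was 1 with the epithelial scaling, 2 with the Y-linked share, 10 with the GC slope, 0 and 0 in replicates 1 to 3, and 2 to 5 with 1 library left out. For mucus release (6) it was 3 with the epithelial scaling and 3 and 0 in replicates 1 to 3. For the cytokines, receptors and signalling genes (10) it was 5 where every library needed 5 counts, which removes genes near 0 in WT, and 6 and 2 in replicates 1 to 3.

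Same-numbered libraries did not pair: their deviations from the group means correlated at -0.739, 0.403, -0.688, 0.36 and 0.486 for replicates 1 to 5, and only 1 of the 5 was its own best partner. With the replicate number as a block, 7 of the 9 goblet cell genes and 3 of the other goblet cell products (none of them lower, so the call of Ang4 ended) were called, beside 2202 of all 17632 genes.

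At these depths absence and a level under 3 counts cannot be told apart for genes at 0, such as Il13 and Il25. Retnlb in WT varied between libraries of like depth, from 2 counts in replicate 3 (30.6 M) to 50 in replicate 1 (30.7 M), and Atoh1 varied widely in both groups.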
